A study of Mus musculus with 15 samples.

Results

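Day 15 +Fgf tissue was compared with the Day 10 Rx::GFP+ optic tissue from which it was grown, gene by gene, with 3 biological replicates in each group (6 of the 15 libraries of the series). The members of the comparison were all genes with at least 1 CPM (read counts scaled to library size) in at least 3 of the 15 libraries, which gave 13845 of 23244 gene entries. Both groups were derived by SFEBq, a floating culture of mouse ES cell aggregates that grow an optic epithelium along their rim. A single ES cell line was used, with GFP expressed from the locus of Rax (Rx), an eye field factor, so every sample shares that reporter background. At Day 10 the GFP+ peripheral tissue was cut out with forceps, not sorted, and was either collected as the Day 10 Rx::GFP+ group or grown on in retinal maturation medium. The Day 15 +Fgf explants received 5 ng/ml bFgf together with 10% FBS until Day 15, and the Day 12 +Fgf group received the same for a shorter time. The Day 15 +Wnt explants, used below for reference, were treated with CHIR99201, an inhibitor of GSK3, at 3 μM for 24 h and then at 1 μM. Day 15 tissue grown without either stimulus was not analysed here, so bFgf, FBS, the maturation medium and the added days of culture cannot be told apart in this comparison.

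Neural retina forms from a proliferating sheet of progenitors that keep eye field factors such as Rax and Six3 while some of their daughters leave the cell cycle. Proneural factors such as Atoh7 act in those daughters, and retinal ganglion cells are the first neurons to appear, followed by cone photoreceptor precursors, horizontal cells and early amacrine cells. Fgf signalling is known to favour neural retina over pigment epithelium in the optic vesicle, where Mitf drives the pigment fate.

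The values are TMM-normalized CPM as deposited. The Day 10 Rx::GFP+ libraries held 13648344 to 16086698 reads on genes and the Day 15 +Fgf libraries 13447537 to 14421731, so that 1 read was worth 0.0669 to 0.0764 CPM and 0.0687 to 0.0737 CPM, respectively. Libraries of the same group correlated at r = 0.988 to 0.995 on the log2 scale over all tested genes, and libraries of different groups at 0.901 to 0.911. Group means were compared with limma on log2(CPM + 0.3), and log2 fold changes below are on this scale, which understates the change of genes near 0. RNA integrity was at or below that of every other sample in the Day 15 +Fgf samples, and its part in the results was not tested beyond a fit with it as a covariate. The kit keeps strand, but the strand setting of the counting is not given in the sources used here, so reads from antisense partners cannot be told apart. Of the named genes, 12 share at least 20% of their exonic bases with a gene on the opposite strand (Ankrd37, Bnip3, Ccnd1, Dll1, Dusp5, Fgf15, Gbx2, Hes5, Kif7, Ptf1a, Rax and Vcl).

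The 3 Day 15 +Fgf libraries were not alike for a small set of genes. A spread of more than 2 (log2 scale) among the replicates was found for 135 of the 13845 genes (0.975%) in Day 15 +Fgf. The number was 4 (0.0289%) in Day 10 Rx::GFP+, 59 in Day 12 +Fgf, 30 in Day 12 +Wnt and 35 in Day 15 +Wnt. Over all tested genes the median SD among replicates was 0.0854 in Day 15 +Fgf and 0.111 in Day 10 Rx::GFP+. In 63 of the 135 genes replicate 1 stood low, in 47 replicate 2 stood high, and in 23 replicate 3 stood high. Among them were genes known from the forebrain, not all of them limited to tissue outside the eye. These genes were chosen after their values were seen. Tbr1, a cortical neuron factor, was at 0.885, 26.2 and 41.2 CPM in Day 15 +Fgf replicates 1, 2 and 3. Emx1, a dorsal forebrain factor, was at 0, 7.69 and 11.6 CPM, and Neurod6, a factor of cortical and amacrine neurons, at 0.0737, 39.1 and 44.0 CPM. All 3 genes were nearly absent from replicate 1 and well detected in replicates 2 and 3. Cubn, a receptor of endodermal and kidney epithelia, was at 0.516, 31.5 and 1.34 CPM, and the endodermal gene Afp at 0.0737, 8.65 and 0 CPM, so replicate 2 was by far the highest for both. The neural crest factor Sox10 was at 0.0737, 0 and 3.04 CPM, high in replicate 3 alone. Afp and Sox10 lay below the filter and were not tested, so they are not among the 135 genes.

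**Figure D1:**
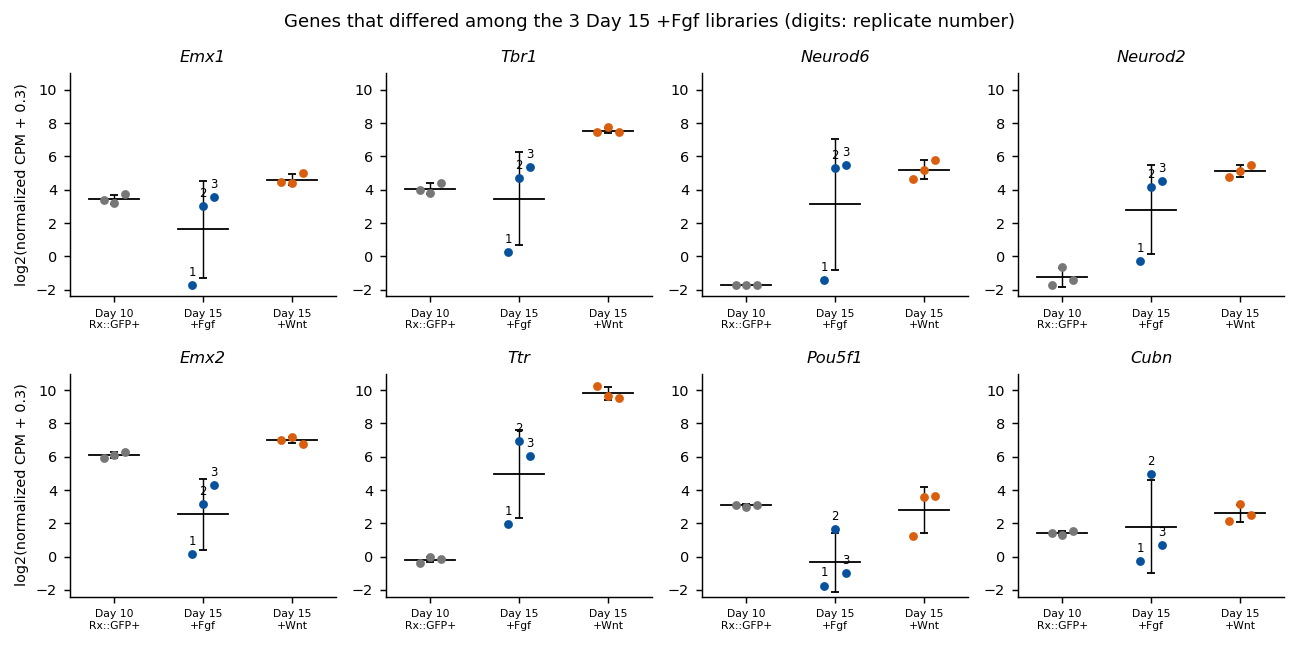
Level of 8 genes, as log2(CPM + 0.3), in each library (points) of Day 10 Rx::GFP+ (grey), Day 15 +Fgf (blue, with the replicate number) and Day 15 +Wnt (orange), with the group mean and SD in black (n = 3). Emx1, Tbr1, Neurod6, Neurod2, Emx2 and Ttr lie lowest in Day 15 +Fgf replicate 1, while Pou5f1 and Cubn lie highest in replicate 2.

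Most of the transcriptome differed between the time points. Of the 13845 genes, 10051 (72.6%) passed an adjusted p under 0.05 in limma, 5012 of them higher (36.2%) and 5039 lower (36.4%) in Day 15 +Fgf, while 3794 did not pass. The shares of 36.2% higher and 36.4% lower are the background for the counts of list members below. The median log2 fold change over all genes was -0.003. Large changes were more often increases: 1900 genes (13.7%) were called with a rise of at least 1 on the log2 scale and 946 (6.83%) with a fall of at least 1. That excess depended on the scaling, with 1465 and 1220 genes under quantile normalization and 2048 and 831 with libraries scaled to their totals. The counts were 671 and 297 genes at 2 or more, and 106 and 32 genes at 4 or more. The replicates of the 2 groups did not overlap for 10220 genes (73.8%). At Day 10 145 of the genes called higher had at most 3 reads in every library, and at Day 15 85 of the genes called lower had at most 3 reads in every library. Because the tissue is a mixture, more cells of a type and more RNA per cell cannot be told apart.

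**Figure D2:**
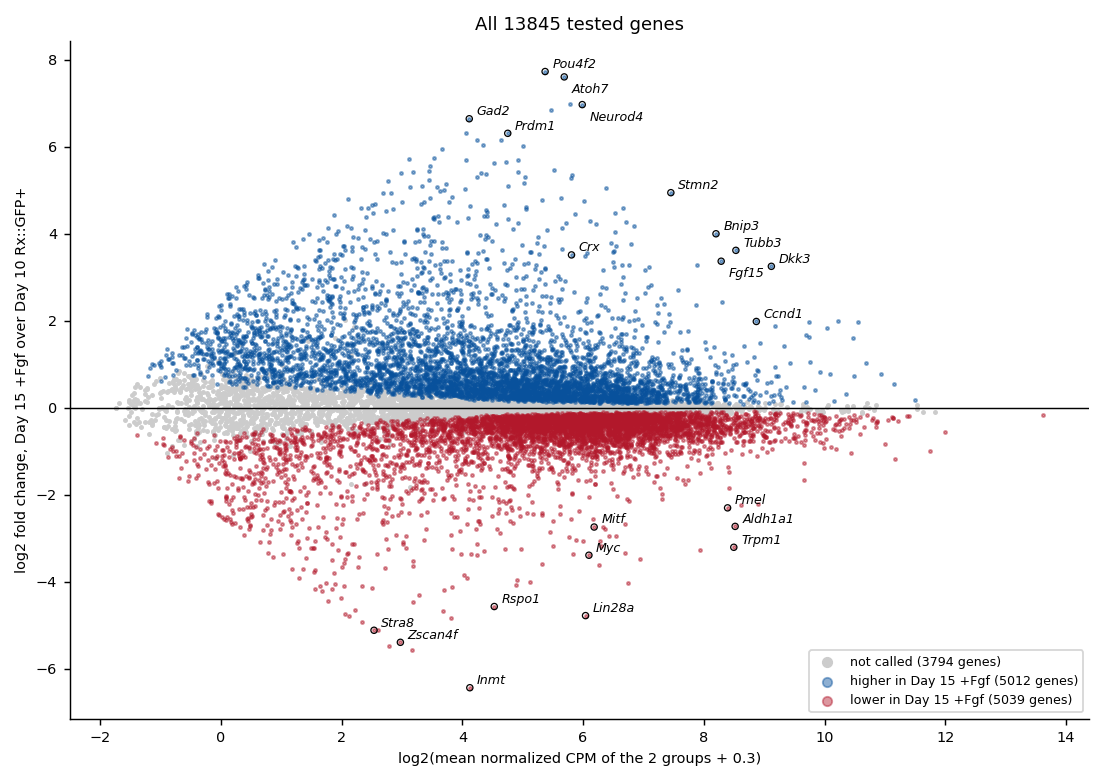
Log2 fold change of Day 15 +Fgf over Day 10 Rx::GFP+ against the mean level of both groups, as log2(CPM + 0.3), for the 13845 tested genes. Blue points are the 5012 genes called higher, red points the 5039 called lower and grey points the 3794 not called by limma, and the increases reach further from 0 (Pou4f2 at 7.72) than the decreases (Inmt at -6.43).

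Among the 10 largest increases with at least 10 CPM, 6 genes mark or instruct retinal neurons: Pou4f2, Atoh7, Sncg, Neurod4, Prdm1 and Dlx1. The remaining 4 were Gad2, an enzyme of GABA synthesis, Insm2, a zinc finger protein of neuroendocrine cells, Ndufa4l2, a mitochondrial protein known from hypoxia, and 3110035E14Rik. Ndufa4l2 rose from 0.409, 0.468 and 0.535 CPM to 92.9, 82.8 and 88.2 CPM (6.84 ± 0.30 SE on the log2 scale, limma adjusted p 4.94e-12). It was as high in Day 15 +Wnt, at 72.3 CPM (log2 difference 0.29, adjusted p 0.40), whereas Pou4f2 was at 1.53 CPM and Atoh7 at 0.0674 CPM there. The 10 largest decreases held genes of another kind. Lin28a is an RNA-binding protein of early embryonic cells, Zscan4c and Zscan4f mark a rare state of ES cells, Stra8 is a gene of germ cell entry into meiosis, and Rspo1 and Dmrt3 are expressed in dorsal neural tissue. The others were Inmt, a methyltransferase, Car3, a carbonic anhydrase, and the predicted genes Gm8994 and Gm20767.

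The neurogenic transcription factors rose as a whole. All 21 of the 21 tested factors were called higher (36.2% of all tested genes were), with a median log2 fold change of 3.58 and a lowest value of 0.29. Atoh7, the factor that makes progenitors competent for the ganglion cell fate, was at 0.0681, 0.0669 and 0.764 CPM in the Day 10 Rx::GFP+ libraries and at 121, 93.0 and 92.6 CPM in the Day 15 +Fgf libraries. Every Day 15 library lay far above the highest Day 10 library (7.60 ± 0.31 SE, limma adjusted p 2.53e-12). Neurod4, a factor of amacrine and photoreceptor lineages, went from 0.613, 0.468 and 1.15 CPM to 134, 128 and 114 CPM. Foxn4, which acts in progenitors of amacrine and horizontal cells, went from 2.45, 2.47 and 2.22 CPM to 118, 98.7 and 111 CPM, and Olig2, a factor of progenitors about to divide for the last time, from 0.341, 0.201 and 0 CPM to 23.5, 20.1 and 20.4 CPM. The log2 fold changes were 6.96 ± 0.25 SE for Neurod4, 5.35 ± 0.14 for Foxn4 and 5.56 ± 0.42 for Olig2, and no Day 15 library overlapped with Day 10. Myt1, a zinc finger factor of young neurons, rose from 2.11, 2.54 and 5.35 CPM to 101, 95.1 and 89.2 CPM (4.81 ± 0.22 SE). The summed level of the 21 factors was 712 to 775 CPM in the Day 10 libraries, 936 to 1005 CPM in Day 12 +Fgf and 2638 to 2873 CPM in Day 15 +Fgf.

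Genes of retinal ganglion cells, the projection neurons of the retina, rose as a group. Of 28 listed genes 26 were tested, 22 rose, 1 fell and 3 did not pass, with a median of 3.29. Pou4f2, the ganglion cell factor also called Brn3b, was at 0, 0.134 and 0.153 CPM at Day 10 and at 87.3, 77.9 and 81.0 CPM in Day 15 +Fgf (7.72 ± 0.32 SE, limma adjusted p 2.69e-12). The Day 10 libraries together held 4 Pou4f2 reads and the Day 15 libraries 3464, a ratio of 875 with an exact 95% counting interval of 342 to 3214. Sncg, a synuclein abundant in ganglion cells, rose from 0.409, 0.535 and 0.764 CPM to 119, 112 and 95.8 CPM, and Isl1, a LIM factor that works beside Pou4f2, from 2.59, 3.14 and 1.91 CPM to 117, 111 and 98.3 CPM. For these genes the groups lay far apart and the Day 15 libraries lay close to each other. Dlx1 and Dlx2, homeobox factors of ganglion and amacrine precursors, reached 35.1 to 38.5 CPM and 37.1 to 40.6 CPM from low Day 10 levels. The gene that fell was Rbpms, an RNA-binding protein used as a marker of mature ganglion cells, and Nefh, the heavy neurofilament of mature axons, was among those that did not pass.

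The proximal promoters of 2 of these genes and of Atoh7 are shown because these genes made large changes, each as the 250 bases before the start site in RefSeq on GRCm38.p6, written 5′ to 3′ on the strand of the gene. Capitals mark the E-box letters CAGATG or CAGCTG and the homeodomain letters TAATCC, or their reverse complements, found by a search of both strands. Those motifs do not overlap each other here. The windows are Atoh7 at chr10:63099535-63099784 (+), Isl1 at chr13:116309689-116309938 (-) and Sncg at chr14:34374670-34374919 (-). In the annotation used for gene positions, Atoh7 starts at 63099651 and Sncg at 34374789, inside these windows. By that annotation part of each window, with the marked letters of Sncg, lies within the gene.
Atoh7: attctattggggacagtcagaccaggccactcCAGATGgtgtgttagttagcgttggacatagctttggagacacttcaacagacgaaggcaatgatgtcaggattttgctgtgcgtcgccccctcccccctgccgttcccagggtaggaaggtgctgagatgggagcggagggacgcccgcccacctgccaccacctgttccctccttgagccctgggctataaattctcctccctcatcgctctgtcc
Isl1: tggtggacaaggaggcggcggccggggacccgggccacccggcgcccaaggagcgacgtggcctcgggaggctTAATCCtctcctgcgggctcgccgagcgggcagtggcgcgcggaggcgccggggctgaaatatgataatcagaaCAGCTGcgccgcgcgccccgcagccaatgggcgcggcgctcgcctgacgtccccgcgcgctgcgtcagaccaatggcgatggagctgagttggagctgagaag
Sncg: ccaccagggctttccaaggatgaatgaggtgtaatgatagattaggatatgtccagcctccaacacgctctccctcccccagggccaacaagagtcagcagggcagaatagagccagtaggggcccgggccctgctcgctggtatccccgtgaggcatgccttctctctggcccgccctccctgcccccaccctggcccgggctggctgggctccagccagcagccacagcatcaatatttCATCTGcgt
CAGATG was present in 14.6% of all 27025 mouse promoters of the same length and CAGCTG in 12.9%. In the promoters found for the ganglion cell list, 3 of 17 held each of them (17.6%), so these letters were nearly as common elsewhere, and a match is a description of the sequence only.

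Photoreceptor genes rose in part. Of 29 listed genes 15 were tested, 10 rose, 3 fell and 2 did not pass (median 1.44, background 36.2% higher, 36.4% lower). Of the 29, 11 had at most 3 reads in every Day 15 +Fgf library. Crx, the homeobox factor of photoreceptor precursors, was at 9.40, 6.75 and 10.3 CPM at Day 10 and at 116, 97.7 and 93.8 CPM in Day 15 +Fgf (3.51 ± 0.24 SE, limma adjusted p 1.31e-09). In between, at Day 12 +Fgf, its mean was 1.83 CPM, below all Day 10 libraries, so Crx first fell and then rose. Prdm1, which holds precursors in the photoreceptor rather than the bipolar fate, rose from 0.273, 0.468 and 0.382 CPM to 61.0, 48.6 and 49.1 CPM (6.30 ± 0.24 SE). Neurod1, a factor of photoreceptor and amacrine cells, rose from 3.20, 3.94 and 6.19 CPM to 141, 115 and 115 CPM. Gngt2, a transducin subunit of cones, reached 5.58 to 7.49 CPM from at most 4 reads in a library, and Rbp3, the retinoid carrier of the photoreceptor matrix, rose from 4.41 to 5.59 CPM to 17.7 to 27.9 CPM. Nrl, the rod-specifying factor, passed as higher but was low, at 1.99, 1.79 and 1.13 CPM. Genes of the phototransduction machinery also passed as higher at low levels, from a mean of 1.73 to 5.91 CPM for Gnb3, from 0.357 to 1.46 CPM for Gnat2 and from 0.739 to 2.08 CPM for Sag. Other genes of mature photoreceptors were at 0 in Day 15 +Fgf: the cone genes Arr3 and Pde6h and the calcium sensor Rcvrn held 0 reads in all 3 libraries, which allows at most 3 reads per library. Against the direction of Crx, the cone factor Rxrg fell from 35.7, 28.5 and 31.3 CPM to 6.86, 6.59 and 5.30 CPM (-2.30 ± 0.16 SE, adjusted p 2.04e-09). Otx2, which lies upstream of Crx and also acts in pigment epithelium, fell from 188, 218 and 177 CPM to 109, 107 and 111 CPM (-0.83 ± 0.09 SE).

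Promoters of Crx and of Rbp3 are shown because both hold the letters TAATCC, the sequence that the Otx and Crx homeodomains are known to bind, given here in capitals (as GGATTA where it lies on the opposite strand). The windows, of the same source and kind, are Crx at chr7:15879956-15880205 (-) and Rbp3 at chr14:33953753-33954002 (+).
Crx: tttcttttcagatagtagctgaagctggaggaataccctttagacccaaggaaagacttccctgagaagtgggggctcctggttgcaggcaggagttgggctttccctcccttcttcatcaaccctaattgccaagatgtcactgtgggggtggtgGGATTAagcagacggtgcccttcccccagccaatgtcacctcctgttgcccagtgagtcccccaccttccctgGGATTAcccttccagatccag
Rbp3: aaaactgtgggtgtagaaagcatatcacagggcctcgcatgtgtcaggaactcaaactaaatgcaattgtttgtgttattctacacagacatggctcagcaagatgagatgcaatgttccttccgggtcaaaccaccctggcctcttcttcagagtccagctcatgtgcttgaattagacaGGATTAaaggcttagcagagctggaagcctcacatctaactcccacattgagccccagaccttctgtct
The Crx window holds TAATCC at 2 places and the Rbp3 window at 1. On either strand, 8 of the 22 photoreceptor promoters found held it (36.4%), against 1735 of all 27025 (6.42%), 1 of 17 in the ganglion cell list and 0 of 16 among the neurogenic factors. Of the 8 photoreceptor genes with these letters 6 were tested, 5 rose and 0 fell. Of the 14 without them 7 were tested, 3 rose and 3 fell. These counts describe the list, come from a search of several motifs in several lists, and were not tested.

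Horizontal and amacrine genes rose as well. Of 20 listed genes 19 were tested, 14 rose, 1 fell and 4 did not pass (median 2.34, background 36.2% higher, 36.4% lower). In Day 15 +Wnt the median over Day 10 was 1.73. Between the Day 15 groups 7 of the 19 were higher in +Fgf and 8 lower, against 38.0% and 30.6% of all tested genes. Ptf1a, the factor that commits precursors to these inhibitory fates, held 1 read in all Day 10 libraries together and reached 7.08, 6.94 and 6.15 CPM in Day 15 +Fgf (4.44 ± 0.26 SE, limma adjusted p 1.99e-10). Gad2 was at 0.0681, 0.0669 and 0 CPM at Day 10 and at 36.6, 33.4 and 31.9 CPM in Day 15 +Fgf, a ratio of 725 with an exact 95% counting interval of 200 to 5993. Calb1, a calcium buffer of horizontal cells, reached 39.4 CPM by Day 12 +Fgf and stayed at 51.4, 39.3 and 34.1 CPM in Day 15 +Fgf, against 1.94 to 4.43 CPM at Day 10. Sstr2, a somatostatin receptor, rose from 0.273, 0.802 and 0.458 CPM to 11.7, 11.7 and 13.0 CPM. All of these were high in every Day 15 library, unlike Neurod6. This gene was called higher (4.85 ± 1.17 SE, adjusted p 0.00132), and its change was 7.12 without Day 15 +Fgf replicate 1, 3.76 without replicate 2 and 3.68 without replicate 3.

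Bipolar and Müller glial genes, which belong to the late-born cells of the retina, did not move in one direction. Of 16 listed genes 11 were tested, and 6 rose and 5 fell (median 1.34, background 36.2% higher, 36.4% lower). Some of the risers are also expressed in progenitors or other neurons: Isl1 was described above, and Clu, a secreted chaperone, rose from 14.2, 9.63 and 12.5 CPM to 45.9, 50.8 and 47.3 CPM. Prkca, a kinase of rod bipolar cells, rose from 7.02, 4.35 and 7.26 CPM to 16.8, 18.2 and 19.8 CPM. Trpm1, the channel of ON bipolar cells and of melanocytes, fell from 761, 622 and 572 CPM to 57.7, 80.6 and 73.1 CPM (-3.21 ± 0.11 SE, limma adjusted p 6.14e-13), with the pigment genes below. Apoe fell from 264 to 338 CPM to 73.2 to 134 CPM and Car14, a carbonic anhydrase of glia and pigment epithelium, from 213 to 261 CPM to 59.4 to 79.9 CPM.

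General neuronal genes rose nearly without exception. For the cytoskeleton and axon 25 of 26 genes rose and 0 fell (median 3.20), and for synaptic release and neurotransmission 31 of 34 rose and 0 fell (median 2.65). Tubb3, the neuronal β-tubulin, was at 51.8, 40.5 and 80.6 CPM at Day 10 and at 714, 671 and 661 CPM in Day 15 +Fgf (3.62 ± 0.16 SE, limma adjusted p 8.20e-12). Stmn2, a microtubule regulator of growing axons, rose from 8.99, 8.76 and 15.7 CPM to 350, 347 and 319 CPM, and Mapt, the tau protein, from 1.98, 1.87 and 1.38 CPM to 79.1, 95.5 and 93.7 CPM. Each Day 15 library lay above each Day 10 library by a wide margin for these genes. Snap25, a SNARE protein of vesicle fusion, rose from 0.409, 0.802 and 1.60 CPM to 57.1, 58.5 and 61.1 CPM, and Chgb, a granin of secretory granules, from 0.954, 1.14 and 1.68 CPM to 58.6, 52.0 and 46.1 CPM. Unlike Pou4f2 and Atoh7, these genes were also high in Day 15 +Wnt, where 19.1% of all tested genes were called at least 1 higher than at Day 10 and 8.8% at least 1 lower. Tubb3 was at 575 CPM there (log2 difference of +Fgf over +Wnt 0.25, adjusted p 0.19), Ina, an axonal intermediate filament, at 131 CPM (-0.01, adjusted p 0.97) and Mapt at 156 CPM (-0.80, adjusted p 0.0032). Between the Day 15 groups, 6 of the 26 cytoskeletal genes were called higher in +Fgf and 6 lower, and 6 of the 34 synaptic genes were higher and 20 lower, against 38.0% and 30.6% of all tested genes. For the neurogenic factors 17 of 21 were higher in Day 15 +Fgf than in Day 15 +Wnt and 3 lower, and for the ganglion cell genes 18 of 26 and 6. Both lists were also above Day 10 in Day 15 +Wnt, with medians of 1.48 and 1.61. The ganglion cell list summed to 321.4 to 373.5 CPM at Day 10. Its sum was 2221 to 2473 CPM in Day 15 +Fgf and 1740 to 1980 CPM in Day 15 +Wnt.

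**Figure D3:**
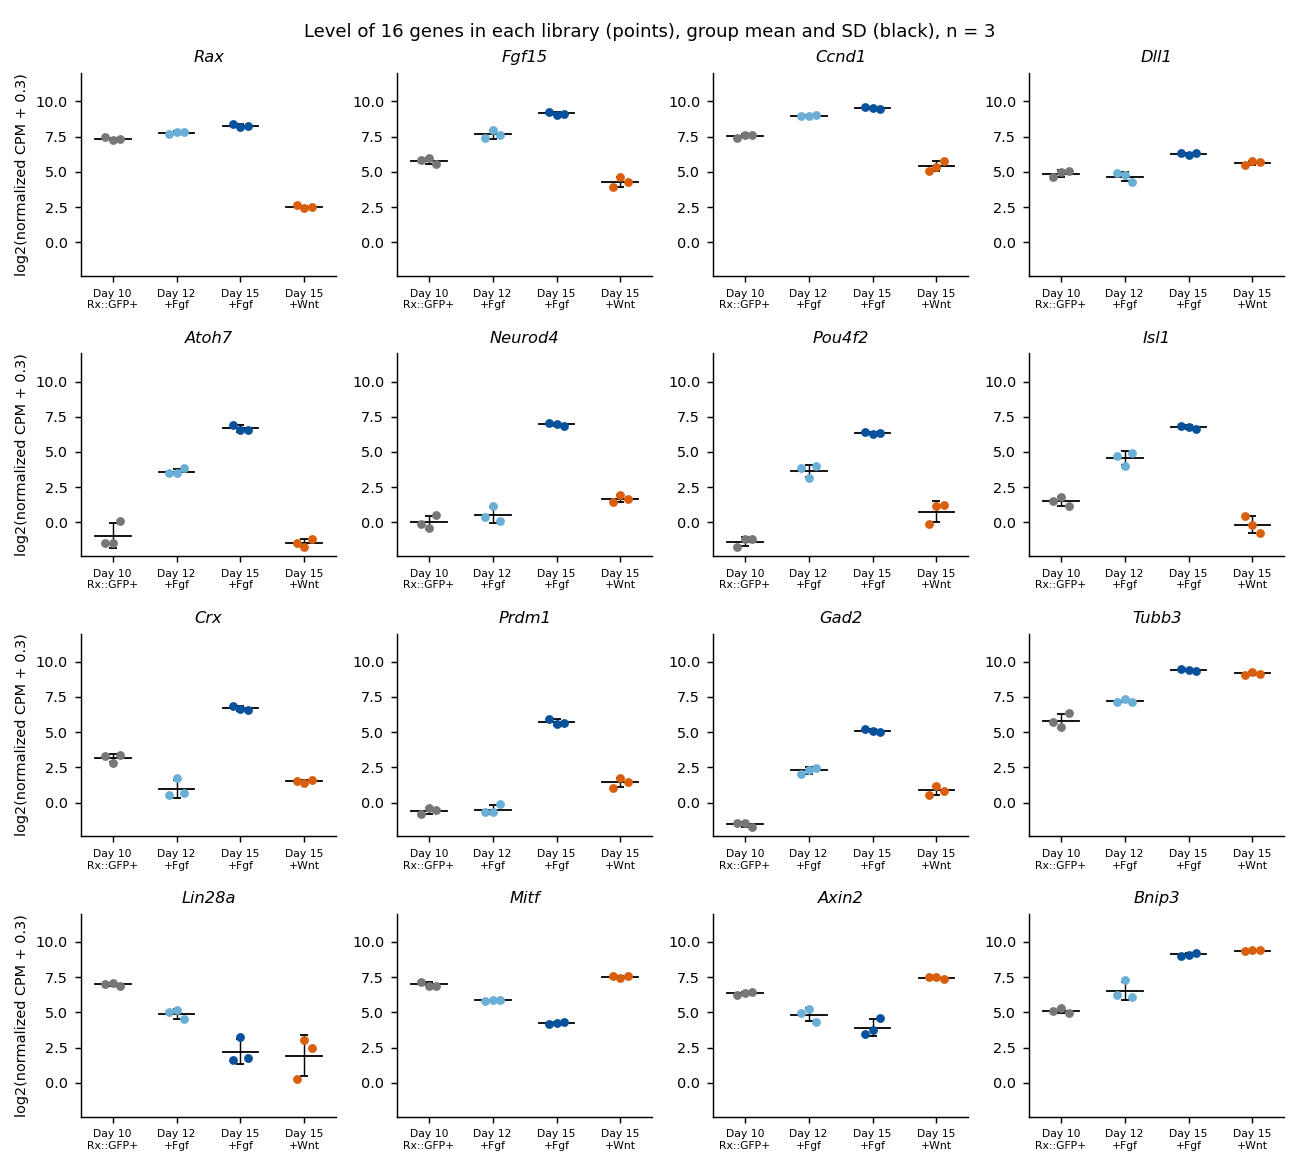
Level of 16 genes, as log2(CPM + 0.3), in each library (points) of Day 10 Rx::GFP+ (grey), Day 12 +Fgf (light blue), Day 15 +Fgf (dark blue) and Day 15 +Wnt (orange), with the group mean and SD in black (n = 3). Pou4f2, Atoh7 and Isl1 already lie above Day 10 at Day 12 +Fgf, Crx lies below it there, and Tubb3 and Bnip3 lie at like levels in both Day 15 groups.

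Progenitor genes did not fall as a list between Day 10 and Day 15. Of the 18 retinal progenitor and eye field genes, 10 rose, 4 fell and 4 did not pass (median 0.46, background 36.2% higher, 36.4% lower). The median over Day 10 was already 0.57 at Day 12 +Fgf. From Day 12 to Day 15 +Fgf 7 members rose and 6 fell (median 0.09), against 27.2% and 29.9% of all tested genes. Rax rose from 174, 156 and 163 CPM to 343, 287 and 305 CPM (0.92 ± 0.08 SE, limma adjusted p 3.93e-08), and Six3, an eye field factor that represses Wnt genes, from 179, 202 and 176 CPM to 321, 307 and 273 CPM (0.69 ± 0.08 SE). In both genes the Day 15 replicates lay above the Day 10 replicates, and Rax was at 5.41 CPM in Day 15 +Wnt. Fgf15, a ligand of retinal progenitors, rose from 57.4, 62.0 and 46.4 CPM to 616, 536 and 556 CPM (3.37 ± 0.19 SE), and Nr2e1, an orphan receptor that keeps progenitors dividing, from 17.9, 26.7 and 29.4 CPM to 94.2, 85.6 and 85.4 CPM. Pax6, needed for the multipotent state, did not pass, at 514, 621 and 540 CPM and then 585, 608 and 592 CPM (0.10 ± 0.05 SE, adjusted p 0.12), and neither did Sox2, at 218, 260 and 249 CPM and then 242, 240 and 245 CPM (adjusted p 0.94). Pax6 passed with another scaling of the libraries and without Day 10 Rx::GFP+ replicate 2 (0.18, adjusted p 0.00163). Lhx2, an early eye field factor, fell from 471, 495 and 465 CPM to 256, 272 and 299 CPM (-0.79 ± 0.07 SE, adjusted p 2.39e-08). Six6 fell from 273, 318 and 285 CPM to 232, 216 and 226 CPM (-0.37 ± 0.13 SE, adjusted p 0.0196), but this call was lost without Day 10 Rx::GFP+ replicate 2 (-0.31, adjusted p 0.0805) or without Day 15 +Fgf replicate 2 (-0.35, adjusted p 0.0577).

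Genes of the Notch pathway, by which a differentiating cell keeps its neighbours in the progenitor state, rose in part. Of 23 tested genes 14 rose, 5 fell and 4 did not pass (median 0.55, background 36.2% higher, 36.4% lower). Among the ligands, Dll4 rose from 0.545, 0.535 and 1.30 CPM to 55.7, 48.1 and 51.4 CPM (5.64 ± 0.20 SE, limma adjusted p 6.63e-13) and Dll1 from 24.3, 30.8 and 33.1 CPM to 81.3, 72.8 and 79.3 CPM (1.41 ± 0.13 SE). Dll1 was still at 25.3 CPM at Day 12 +Fgf, whereas Dll4 was already at 13.3 CPM. The receptor Notch1 rose from 41.4, 49.3 and 49.0 CPM to 224, 191 and 164 CPM (2.04 ± 0.11 SE), and the target Hes5, which represses proneural genes, from 11.9, 9.63 and 13.9 CPM to 176, 148 and 167 CPM (3.78 ± 0.12 SE). Mfng, a glycosyltransferase that tunes the receptor, rose from 5.21 to 10.7 CPM to 65.2 to 77.6 CPM. Dll1, Dll4, Notch1 and Hes5 were thus each higher in every Day 15 +Fgf library than in any Day 10 library. The ligand Jag1 fell from a mean of 75.3 to 20.5 CPM and the receptor Notch2 from 72.0 to 35.9 CPM. Maml1, Numb and Mib1 also fell, and the target Hes1 did not pass, with means of 90.8 and 105 CPM (adjusted p 0.0585). The ligand Dll3, which acts inside the cell, rose too, from 2.94 to 4.51 CPM to 20.3 to 27.3 CPM.

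The cell cycle genes moved apart. Of 34 DNA replication genes 31 fell, 1 rose and 2 did not pass (median -0.53), while of 28 mitosis genes 20 rose, 2 fell and 6 did not pass (median 0.33). The falls in replication genes were modest. Mcm5, a subunit of the replicative helicase, was at 360, 367 and 350 CPM at Day 10 and at 173, 169 and 164 CPM in Day 15 +Fgf (-1.09 ± 0.05 SE, limma adjusted p 1.14e-11), and Mcm4 fell from 356, 416 and 371 CPM to 175, 182 and 185 CPM. Ccne1, the cyclin of S phase entry, fell from 61.3 to 65.6 CPM to 33.4 to 37.4 CPM (-0.81 ± 0.08 SE), and the gene that rose was Ccne2, its paralog. Ccnb2, a mitotic cyclin, rose from 35.0, 38.2 and 36.2 CPM to 96.7, 102 and 102 CPM (1.45 ± 0.06 SE), and the proliferation marker Mki67 from 215, 274 and 248 CPM to 520, 506 and 446 CPM (1.00 ± 0.08 SE). At Day 12 +Fgf 28 of 28 mitosis genes were called higher than at Day 10 (27.9% of all tested genes were higher and 27.8% lower). From Day 12 to Day 15 +Fgf 1 of them rose and 15 fell (27.2% of all tested genes rose and 29.9% fell). The replication genes fell late, since 9 were higher and 11 lower than Day 10 at Day 12 +Fgf, and 33 of 34 were lower at Day 15 than at Day 12. Compared with Day 15 +Wnt, all 34 replication genes and all 28 mitosis genes were called higher in Day 15 +Fgf, against 38.0% of all tested genes.

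Genes of the D cyclins, CDK inhibitors and cell cycle exit were mixed. Of 18 listed genes 12 rose, 4 fell and 2 did not pass (median 0.87, background 36.2% higher, 36.4% lower). Ccnd1, the cyclin of retinal progenitors, rose from 172, 200 and 195 CPM to 765, 758 and 714 CPM (1.98 ± 0.14 SE, limma adjusted p 1.26e-09), with a mean of 511 CPM at Day 12 +Fgf and 42.5 CPM in Day 15 +Wnt. Gadd45a, a stress and growth arrest gene, rose from 14.7, 16.0 and 17.3 CPM to 180, 164 and 149 CPM (3.34 ± 0.09 SE). Btg2, which marks divisions that yield neurons, rose from 52.7, 49.9 and 52.3 CPM to 283, 267 and 261 CPM, and Cdkn2c, a CDK4/6 inhibitor, from 2.04 to 2.67 CPM to 15.7 to 18.1 CPM. Some members went the other way. Cdkn1a, which encodes p21, fell from 161, 182 and 167 CPM to 59.1, 55.8 and 52.9 CPM (-1.60 ± 0.07 SE), and Trp53inp1 fell from 216 to 231 CPM to 72.8 to 77.3 CPM.

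**Figure D4:**
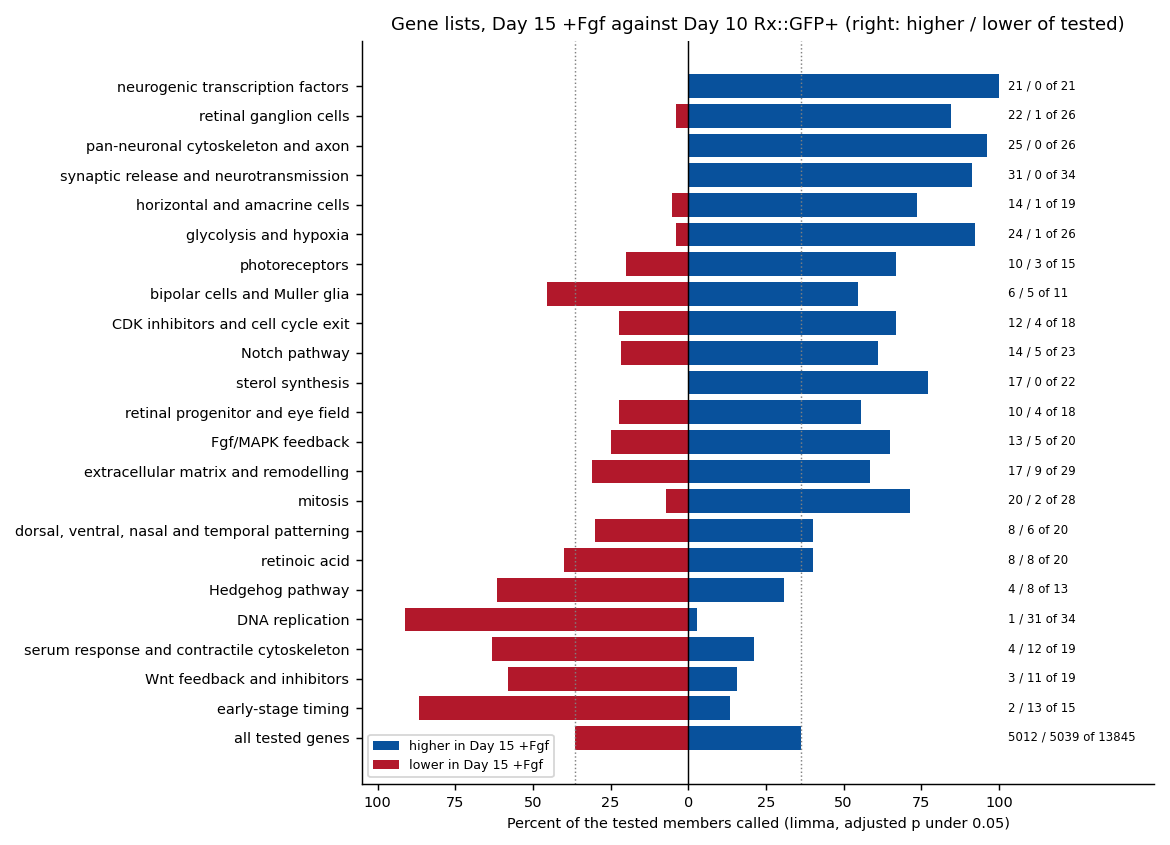
Percent of the tested members of 22 gene lists called higher (blue, to the right) or lower (red, to the left) in Day 15 +Fgf than in Day 10 Rx::GFP+ by limma, with the counts at the right. The dotted lines mark the share over all 13845 tested genes, and neurogenic factors (21 of 21 higher) and DNA replication genes (31 of 34 lower) lie furthest beyond them.

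Genes of the early embryonic stage fell. Of 15 tested timing genes, 13 fell and 2 rose, with a median of -1.40 (36.4% of all tested genes fell). Lin28a, an RNA-binding protein that blocks let-7 microRNA maturation, was at 127, 135 and 117 CPM at Day 10 and at 2.73, 9.13 and 3.11 CPM in Day 15 +Fgf (-4.78 ± 0.50 SE, limma adjusted p 2.09e-07). It is encoded on mouse chromosome 4 (GRCm38 chr4:134003330-134018841, minus strand). Lin28b, its paralog, fell from 156, 180 and 159 CPM to 22.7, 19.2 and 21.1 CPM (-2.96 ± 0.09 SE), and Myc from 115, 137 and 121 CPM to 10.0, 10.2 and 15.2 CPM (-3.39 ± 0.15 SE). All Day 15 libraries lay well below Day 10, with replicate 2 the highest for Lin28a. Hmga2, a chromatin protein and known let-7 target, fell from 393, 472 and 470 CPM to 38.2, 43.7 and 57.5 CPM (-3.27 ± 0.16 SE), but only after Day 12, when its mean was 581 CPM. Nr6a1, an orphan receptor of the early embryo, fell from 41.9 to 54.6 CPM to 6.42 to 8.52 CPM. The 2 risers were Mycn, from 57.6, 66.6 and 70.5 CPM to 134, 140 and 134 CPM, and the DNA methyltransferase gene Dnmt3a, from 106, 100 and 111 CPM to 266, 251 and 245 CPM. Of 6 tested pluripotency markers 5 fell and 0 rose (median -2.94). Nanog fell from 5.52, 7.75 and 7.87 CPM to 0.221, 0.893 and 0 CPM, and Pou5f1 from 8.38, 7.75 and 8.41 CPM to 0, 2.88 and 0.212 CPM, with the remainder in replicate 2 (-3.43, and -4.44 without that replicate). Stra8 held 465 reads over the Day 10 libraries and 0 in Day 15 +Fgf, at least 51.6-fold lower when 3 reads per library are allowed. Zscan4f held 634 and 3 reads, a ratio of 209 with an exact 95% counting interval of 71.2 to 1017, although reads of the near-identical Zscan4 copies could have been divided among them by the authors' counting.

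Pigment epithelium and ciliary margin genes were present at Day 10 and fell. Of 16 pigment epithelium markers 11 were tested, 7 fell, 2 rose and 2 did not pass (median -1.40), and their summed level was 833 to 1166 CPM at Day 10, 227 to 403 CPM in Day 15 +Fgf and 5940 to 7895 CPM in Day 15 +Wnt. Mitf, the master regulator of pigment cells, was at 141, 119 and 118 CPM at Day 10 and at 17.8, 18.3 and 19.6 CPM in Day 15 +Fgf (-2.74 ± 0.07 SE, limma adjusted p 4.60e-14). The melanosome genes Pmel and Slc45a2 fell from 694, 513 and 472 CPM to 95.4, 128 and 114 CPM and from 11.1 to 19.4 CPM to 0.811 to 1.70 CPM. In all Day 15 +Fgf libraries these genes lay far below Day 10. Tyr, the melanin enzyme, fell less, from 71.5, 48.6 and 40.6 CPM to 23.3, 28.7 and 30.5 CPM (-0.92 ± 0.18 SE), and was lower still at Day 12 +Fgf, at 17.7 CPM. One of the 2 risers was Ttr, a thyroid hormone carrier of pigment epithelium and choroid plexus, at 0.477, 0.669 and 0.611 CPM and then 3.61, 121 and 66.6 CPM. Its log2 fold change was 5.16, and was 6.67 without Day 15 +Fgf replicate 1 and 4.20 without replicate 2. Of 9 tested ciliary margin genes 7 fell, 1 rose and 1 did not pass (median -2.06), and the summed level went from 1281 to 1345 CPM to 494 to 595 CPM. Wnt2b, a ligand of the margin, fell from 13.6, 10.8 and 9.93 CPM to 0.664, 1.58 and 1.34 CPM (-3.02 ± 0.21 SE), Bmp7 from 86.0 to 104 CPM to 8.85 to 15.7 CPM and the gap junction gene Gja1 from 613 to 666 CPM to 103 to 162 CPM.

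Most tested genes of Wnt feedback and inhibition fell and most of Fgf/MAPK feedback rose, with exceptions in both lists. Of 19 tested genes of Wnt feedback and inhibition 11 fell, 3 rose and 5 did not pass (median -0.95, background 36.2% higher, 36.4% lower). The summed level of this list, which includes Dkk3, went the other way. It was 1470 to 1538 CPM at Day 10 and 2204 to 2396 CPM in Day 15 +Fgf. Axin2, a direct feedback target, was at 76.3, 82.9 and 85.2 CPM at Day 10 and at 10.5, 13.0 and 23.7 CPM in Day 15 +Fgf (-2.43 ± 0.23 SE, limma adjusted p 5.49e-08), and Sp5, another, fell from 11.1, 10.4 and 13.8 CPM to 0.221, 0.481 and 1.70 CPM (-3.68 ± 0.32 SE). Lef1, a nuclear partner of β-catenin, fell from 35.3 to 44.2 CPM to 4.50 to 11.3 CPM. In each of these genes replicate 3 was the highest of the Day 15 libraries. A riser was Dkk3, a secreted protein of retinal progenitors, from 102, 101 and 114 CPM to 1071, 997 and 949 CPM (3.25 ± 0.08 SE). Of 20 tested genes of Fgf/MAPK feedback 13 rose, 5 fell and 2 did not pass (median 0.46, same background). Spry4, an inhibitor of receptor signalling, rose from 2.04, 2.67 and 2.67 CPM to 19.0, 18.3 and 16.5 CPM (2.73 ± 0.13 SE), and the ETS factors Etv4 and Etv1 from 7.15 to 8.69 CPM to 32.3 to 39.1 CPM and from 13.7 to 16.4 CPM to 56.1 to 67.1 CPM. The members that fell were Dusp5, Dusp14 and the immediate early genes Egr1, Egr2 and Fos. Dusp5 fell from 13.2, 16.8 and 11.3 CPM to 4.28, 3.78 and 4.66 CPM, and Egr1 from 23.6, 17.0 and 18.7 CPM to 8.63, 8.31 and 9.68 CPM. At Day 12 the median of this list over Day 10 was 1.07, with 16 of 20 higher and 0 lower (27.9% and 27.8% of all tested genes). From Day 12 to Day 15 3 members rose and 13 fell (27.2% and 29.9% of all tested genes).

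Serum response and matrix genes had a peak at Day 12. Of 19 tested serum response genes 12 fell, 4 rose and 3 did not pass by Day 15 (median -0.69, background 36.2% higher, 36.4% lower). At Day 12 +Fgf 16 of 19 had been higher than Day 10 (median 0.90), against 27.9% of all tested genes. Cyr61, a target of YAP and SRF, was at 54.3, 52.4 and 53.0 CPM at Day 10, 74.9 CPM at Day 12 and 15.3, 13.9 and 16.5 CPM in Day 15 +Fgf (-1.79 ± 0.12 SE, limma adjusted p 7.99e-10). Thbs1, a matricellular protein, took the same course, with 55.2 to 60.8 CPM, 119 CPM and then 17.4 to 20.7 CPM. Acta2, smooth muscle actin, reached 177 CPM at Day 12 and was at 53.6 to 61.0 CPM at Day 15, still above 11.9 to 17.6 CPM at Day 10. Of 29 matrix genes 17 rose, 9 fell and 3 did not pass (median 0.42, same background). From Day 12 to Day 15 21 of the 29 fell and 2 rose (29.9% and 27.2% of all tested genes). Tnc, tenascin C, was at 1.14 to 2.52 CPM, 160 CPM and 15.6 to 34.0 CPM along the path. Vcan, a proteoglycan of loose matrix, fell from 247, 255 and 255 CPM to 53.9, 55.6 and 86.4 CPM (-1.98 ± 0.14 SE), whereas Ncan, the proteoglycan of neural matrix, rose from 2.86, 2.74 and 4.28 CPM to 13.1, 24.2 and 32.6 CPM (2.65 ± 0.27 SE). Col1a2 rose from 7.02 to 9.27 CPM to 63.9 to 85.8 CPM, and laminin α5 (Lama5) fell from 47.9 to 56.1 CPM to 17.9 to 24.0 CPM. Col3a1, which also marks mesenchyme, overlapped between the groups (20.7 to 36.4 CPM and 7.55 to 21.0 CPM).

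**Figure D5:**
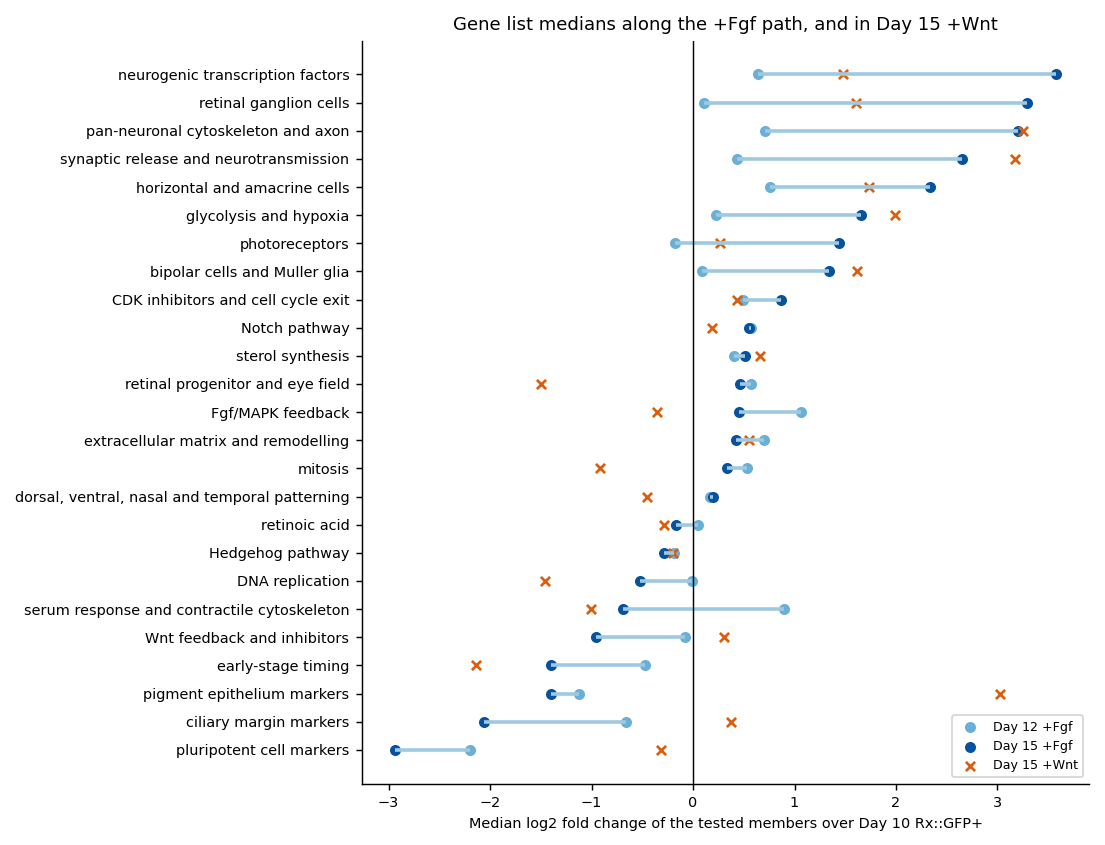
Median log2 fold change over Day 10 Rx::GFP+ of the tested members of 25 gene lists at Day 12 +Fgf (light blue), Day 15 +Fgf (dark blue) and Day 15 +Wnt (orange crosses), all against the same Day 10 libraries. Neurogenic factors went from 0.64 at Day 12 to 3.58 at Day 15 and ganglion cell genes from 0.11 to 3.29, while serum response genes went from 0.90 to -0.69.

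Glycolysis and hypoxia genes rose almost throughout. Of 26 genes 24 rose, 1 fell and 1 did not pass (median 1.65), and the summed level went from 7275 to 7894 CPM at Day 10 to 16890 to 18840 CPM in Day 15 +Fgf. Bnip3, a mitophagy receptor induced by low oxygen, was at 33.4, 39.7 and 30.6 CPM at Day 10 and at 517, 549 and 596 CPM in Day 15 +Fgf (4.00 ± 0.24 SE, limma adjusted p 2.35e-10). Slc16a3, the lactate exporter, rose from 10.6, 15.4 and 9.78 CPM to 203, 209 and 242 CPM (4.18 ± 0.35 SE), and Adm, adrenomedullin, from 0.477, 0.602 and 0.841 CPM to 39.1, 35.8 and 34.6 CPM. The groups did not overlap for any of them, and the rise came mostly after Day 12, when Bnip3 was at 97.9 CPM and Adm at 1.66 CPM. Egln3, an oxygen-sensing hydroxylase, rose from 6.80 to 6.95 CPM to 50.8 to 60.8 CPM. The same genes were high in Day 15 +Wnt, at 665 CPM for Bnip3 (log2 difference -0.27, adjusted p 0.34), 266 CPM for Slc16a3 (-0.29, adjusted p 0.48) and 34.2 CPM for Adm (0.09, adjusted p 0.81). The member that fell was Ldhb, the lactate dehydrogenase subunit of oxidative tissue. Of 22 tested genes of sterol synthesis 17 rose, 0 fell and 5 did not pass (median 0.51), with small changes. Hmgcs1, which makes the precursor of mevalonate, rose from 442, 471 and 448 CPM to 920, 889 and 952 CPM (1.02 ± 0.08 SE), and Insig1, the sterol sensor, from 86.2 to 94.9 CPM to 187 to 191 CPM.

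Genes of retinal pattern and of retinoic acid were close to the background in number but held large single changes. Of 20 tested patterning genes 8 rose, 6 fell and 6 did not pass (median 0.20), and of 20 retinoic acid genes 8 rose, 8 fell and 4 did not pass (median -0.16, or 0.03 with RNA integrity as a covariate). The dorsal genes Bmp4 and Aldh1a1 fell. Bmp4, a dorsal ligand, went from 44.8, 34.4 and 43.8 CPM to 3.54, 6.04 and 8.27 CPM (-2.79 ± 0.20 SE, limma adjusted p 1.70e-09), and Aldh1a1, a retinoic acid synthase of dorsal retina, from 596, 552 and 763 CPM to 112, 76.6 and 99.8 CPM (-2.73 ± 0.51 SE). Tbx3, a dorsal factor, rose from 30.8, 23.5 and 29.6 CPM to 77.6, 63.2 and 55.8 CPM, so dorsal genes did not all fall. Cyp26a1, which breaks down retinoic acid and marks a stripe across the central retina, rose from 5.45, 3.74 and 5.73 CPM to 43.4, 45.2 and 26.1 CPM (2.85 ± 0.42 SE). Its relative Cyp26b1 was uneven, at 1.77, 20.8 and 29.6 CPM in Day 15 +Fgf against 0.75 to 1.53 CPM at Day 10, and its log2 fold change of 3.04 was 4.24 without replicate 1 and 2.31 without replicate 3. Crabp2, a retinoic acid carrier, fell from 513, 532 and 471 CPM to 175, 168 and 199 CPM, and Stra6, the retinol transporter, from 49.6 to 61.3 CPM to 18.8 to 23.2 CPM. Among 13 tested Hedgehog genes 4 rose and 8 fell (median -0.29), against 36.2% and 36.4% of all tested genes. The pathway target Gli1 rose from 1.09, 2.41 and 2.14 CPM to 12.6, 11.5 and 7.77 CPM and Ptch1, receptor and target, from 14.0 to 19.7 CPM to 33.6 to 40.8 CPM. The repressor Gli3 fell from 137, 163 and 150 CPM to 51.5, 54.4 and 52.0 CPM, and the coreceptor Gas1 from 298 to 345 CPM to 95.4 to 113 CPM.

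Marker lists of cells outside the neural retina did not move in 1 direction. For the non-retinal brain, 9 of 14 markers were tested, 3 rose (Barhl1, En2 and Gbx2) and 4 fell (median -0.78). These counts, and those for neural crest and mesenchyme, lay near the background, in which 36.2% of all tested genes rose and 36.4% fell. Without Day 15 +Fgf replicate 1, 2 or 3 the brain markers that fell numbered 3, 4 and 5, and their median was -0.14, -1.26 and -1.58. Their summed level was 112 to 139 CPM at Day 10 and 15.6 to 93.6 CPM in Day 15 +Fgf, lowest in replicate 1. Emx2 fell from 61.5, 68.7 and 77.5 CPM to 0.811, 8.52 and 19.5 CPM (-3.58, and -2.39 without replicate 1 and -4.47 without replicate 3), and Lmx1a, a dorsal midline factor, from 13.8 to 17.9 CPM to 0.369 to 2.26 CPM. Tbr1 did not pass (-0.62, adjusted p 0.54) and was 0.98 without replicate 1. Emx1 did not pass either (-1.82, limma adjusted p 0.0866). It was -0.14 without replicate 1, and it passed without replicate 2 (-2.51, adjusted p 0.0327) and without replicate 3 (-2.80, adjusted p 0.0113). For neural crest and mesenchyme, 11 of 13 markers were tested, 3 rose (Pdgfra, Pdgfrb and Col1a1) and 5 fell, with the same counts without any 1 Day 15 +Fgf library, and the summed level was 75.7 to 102 CPM and then 64.7 to 94.9 CPM, with Foxd3 at 7 reads or fewer in every library of Day 15 +Fgf. For the lens, 4 of 11 were tested and 1 rose, with a summed level of 3.34 to 4.75 CPM and then 5.38 to 6.39 CPM, and 4 markers had at most 3 reads in every Day 15 +Fgf library. For muscle and endoderm, 0 of 5 tested genes passed in limma, 0 at an unadjusted p under 0.05, and 1 passed without replicate 1, in edgeR and in DESeq2, and the summed level of 1.99 to 24.8 CPM in Day 15 +Fgf had its high end in replicate 2. For endothelium and blood, 4 of 10 listed markers were tested, 1 rose, 2 fell and 1 did not pass (median -0.892). The riser was Kdr, from 34.3, 58.4 and 54.3 CPM to 265, 262 and 216 CPM (2.36 ± 0.26 SE, limma adjusted p 4.49e-07). It made up nearly all of the summed level of 217 to 267 CPM in Day 15 +Fgf. The endothelial marker Cdh5 held at most 1 read in a Day 15 +Fgf library and the blood marker Ptprc at most 4, while Kdr is also known from retinal progenitors. The part of these other cells in the results was not tested. The counts of the neuronal lists did not depend on 1 library: without Day 15 +Fgf replicate 1, 2 or 3, 21 of 21 neurogenic factors were still called higher each time, and the ganglion cell genes called higher numbered 23, 22 and 21.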

How the data were processed

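The authors mapped paired reads of each library to mm10 with TopHat2 2.0.8b, estimated fragments per gene of the UCSC transcriptome with Cuffdiff (Cufflinks 2.1.1), and deposited edgeR 3.2.4 normalized values, which the paper calls CPM. The deposited values form a normalized signal: every nonzero value (100%) was a whole multiple of 1 read within a tolerance of 0.02. Groups follow the labels. Genes reaching 1 CPM in 3 libraries, relative to column totals, were tested with limma 3.58.1 (R 4.3.3) on log2(CPM + 0.3), in 1 two-sided fit of 5 group means to 15 libraries moderated with a trend, with Benjamini-Hochberg adjustment and a threshold of 0.05. edgeR 4.0.16 and DESeq2 1.42.0 on the recovered reads, other scalings, filters, pseudocounts, covariates, a replicate block and leaving out each replicate were alternatives. The procedure was tested on simulated data in which few genes changed and all genes had the same setting for the spread among replicates. The real data differ from that setting, so the simulation does not vouch for the calls. The comparison, the gene lists and the rule for named genes were chosen with earlier results of these data known. The rule names the 10 largest called increases and decreases with at least 10 CPM and replicates that do not overlap, up to 6 called members of each list with at least 5 CPM, and a set of known retinal genes. Genes named beside it are other list members and genes said to be chosen after their values were seen. These list members include exceptions (Rbpms, Nefh, Ccne2, Ldhb, Mycn, Dnmt3a, Egr1, Nrl) and genes at low levels (such as Sag and Gnat2). They also include genes not called (such as Sox2 and Hes1) and genes not tested (such as Cdh5, Ptprc, Arr3, Pde6h and Rcvrn). Entries that name several genes (186) were not named, and some genes of the rule and lists are not reported here. Promoters come from RefSeq. Positions and overlaps come from the annotation of GRCm38. Replicates are separate samples by the labels, and counting intervals leave out all but counting error, as PCR duplicates are no independent molecules.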

Additional observations from a re-analysis of the deposited data

Results flagged for a closer look

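Changes from Day 10 Rx::GFP+ to Day 15 went in opposite directions under +Fgf and +Wnt for 20 of the 163 named genes considered. Each was called in both comparisons and between the Day 15 groups, with a log2 change from Day 10 of 1 or more in size. By the same criteria 156 of all tested genes (1.13%) went opposite ways, 42 of them higher in +Fgf. Both comparisons share the Day 10 libraries, and a difference between the Day 15 groups follows from how the genes were picked, so the values are descriptions. There were 9 genes that rose in +Fgf and fell in +Wnt. The log2 difference of +Fgf over +Wnt was 8.13 for Foxn4, 6.93 for Isl1 and 5.18 for Crx. It was 5.71 for the retinoic acid hydroxylase Cyp26a1, 5.23 for the dorsal factor Tbx3, 4.86 for the ligand Fgf15, 4.61 for Dkk3, 4.15 for the cyclin Ccnd1 and 3.75 for the receptor Kdr. There were 11 genes that fell in +Fgf and rose in +Wnt. Among pigment cell genes the difference was -5.19 for Slc45a2, -5.03 for Pmel, -4.82 for Trpm1 and -3.54 for Dct. Among Wnt targets and secretion genes it was -4.79 for Sp5, -3.54 for Axin2 and -3.17 for Wls. The remaining differences were -3.98 for the collagen gene Col3a1, -3.66 for Gja1, -3.48 for Apoe and -2.61 for Stra6.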

How the results depend on the processing

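Every setting kept the number of genes called between 8336 and 10750, against 10051. Higher calls were 49.9% of all calls, 56.8% with libraries scaled to their totals and 43.9% with quantile normalization, and the median change over all genes was -0.003, 0.081 and -0.073. With genes of at least 10 CPM in 3 libraries only, which tests fewer genes, 1224 genes were called at least 1 higher and 570 at least 1 lower, against 1900 and 946. Deviations of Day 10 Rx::GFP+ and Day 15 +Fgf libraries correlated at 0.055, 0.096 and 0.052 for the same replicate number. For different numbers the correlations were -0.113 to 0.051. These small values do not settle whether the replicate numbers pair the samples, and a replicate block gave 10045 calls. edgeR gave 10012 calls, DESeq2 9704 and RNA integrity as a covariate 9214. Leaving out 1 replicate of either group gave 9552 to 9743 calls, 4747 to 4862 higher and 4805 to 4901 lower, of which 1844 to 1952 were at least 1 higher and 906 to 980 at least 1 lower. Over all combinations of a named gene and a setting, the log2 fold change stayed called or not called in 3610, lost the call in 5 and gained it in 7. The losses were Six6 under 4 settings and Col3a1 with RNA integrity (-0.79, adjusted p 0.106). Over all combinations of a list and a setting, 34 list counts moved and 1224 did not, and 61 list medians moved and 568 did not. Without a filter the median was 0.505 for photoreceptors (from 1.44), -0.135 for pigment epithelium and -0.175 for non-retinal brain. With genes of at least 10 CPM it was 2.00 for photoreceptors, 0.535 for bipolar cells and Muller glia (from 1.34), and 0.259 for endothelium and blood (from -0.892). The cause of these changes was not tested. Depth limits genes under 3 reads in a library.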

Other observations

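Genes of the dorsal neural tube were highest in 1 Day 15 +Fgf library, replicate 3, and they were chosen after their values were seen. Wnt1, a roof plate ligand, was at 2.25, 1.74 and 4.51 CPM in Day 10 Rx::GFP+ and at 0, 0.206 and 2.76 CPM in Day 15 +Fgf replicates 1, 2 and 3. Pax3, a dorsal neural and neural crest factor, was at 5.11, 5.95 and 5.81 CPM and then 0.442, 0.618 and 2.76 CPM, and the Wnt enhancer Rspo3 at 34.0, 24.5 and 34.2 CPM and then 0.885, 2.27 and 8.69 CPM. In all 3 genes replicate 3 was the highest of its group, but for Pax3 and Rspo3 it was still below every Day 10 library.

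Some genes of matrix and contractile cells had higher levels at Day 12 +Fgf than at Day 10 or Day 15 +Fgf, and they too were chosen after their values were seen. Spp1, osteopontin, had a mean of 532 CPM at Day 12 +Fgf, against 6.13 to 10.2 CPM at Day 10 and 11.5 to 18.9 CPM at Day 15. Mmp9, a matrix protease, had a mean of 57.5 CPM at Day 12 +Fgf, against 0.204 to 0.382 CPM at Day 10 and 0.824 to 2.90 CPM at Day 15. Tagln, an actin-binding protein of contractile cells, had a mean of 316 CPM, against 17.7 to 27.1 CPM and 36.5 to 42.0 CPM.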
